A study of Mus musculus with 10 samples.

Results

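Liver RNA of mice that carry an active human SREBP-1a was compared with liver RNA of mice that carry an active human SREBP-2. The comparison rests on 4 of the 10 arrays of the series, chosen by their labels: 2 arrays of the TgSREBP-1a line against 2 arrays of the TgSREBP-2 line. All 12411 probe sets of the Affymetrix MG_U74Bv2 array that are not controls were tested, of which 10581 carried 1 gene symbol, for 7542 genes.

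TgSREBP-1a and TgSREBP-2 mice were males of 12 to 16 weeks that overexpress the transcriptionally active nuclear form of the human protein, and wild type littermate males served as their controls. For 2 weeks all 3 groups received much protein and little carbohydrate, a diet that served to drive the transgenes. In the published lines of these names the transgene is under the phosphoenolpyruvate carboxykinase promoter, which such a diet induces. That promoter is not named in the labels. A further pair of groups, used here for single values only, were chow-fed males of 10 to 12 weeks: Scap-/-;MX1-Cre mice, whose liver loses SCAP, and their wild type controls, all given 4 injections of polyinosinic-polycytidylic acid 14 days before the liver was taken. For each group equal amounts of RNA of 5 livers were combined into 1 pool (20 µg in total), and the pool was hybridised to 2 arrays. Duplicate arrays therefore share their RNA, and each p-value below sets 1 pool against another with hybridisation error only. It says nothing about the spread between mice. No probe set was assigned to Srebf1 or to the human transgenes, so the amount of each nuclear protein was not measured, and the kind of SREBP and its amount cannot be told apart.

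SREBPs are membrane-bound transcription factors of lipid synthesis. When sterols are scarce, the escort protein SCAP carries them to the Golgi, where proteases free the nuclear part, and the Insig proteins retain SCAP while sterols are plentiful. A transgene for the nuclear part alone escapes this control. SREBP-1a and its shorter form SREBP-1c are known as activators of fatty acid and triglyceride genes, with SREBP-1a acting on sterol genes as well, while SREBP-2 is known mainly for cholesterol synthesis and uptake.

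Values are log2 expression as deposited. A difference is TgSREBP-1a minus TgSREBP-2 on that scale, given with its limma standard error (n = 2 arrays a group). A probe set was called where limma gave a Benjamini-Hochberg adjusted p under 0.05 over all probe sets and the difference reached 1.5-fold. The median standard error was 0.115. Duplicates correlated at 0.994 for TgSREBP-1a and for wild type and at 0.989 for TgSREBP-2. The second TgSREBP-2 array correlated at 0.991 with each wild type array, above its correlation with its own duplicate, and its highest value was 12.2 against 13.3 on the first. Its part in the results was not tested beyond the values without it that stand beside the counts below. A call is said to hold where it was made again in each of the 4 fits that left out 1 array of either line. Calls of the genes described held unless the arrays whose omission lost them are named, with the highest limma adjusted p of those fits.

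The lines differed at 231 probe sets, 1.86% of those tested: 147 were higher in TgSREBP-1a (1.18%) and 84 lower (0.677%). By limma 282 had an adjusted p under 0.05, and 1823 an unadjusted p under 0.05. Of the calls, 66 higher and 49 lower ones reached 2-fold. The arrays of the lines did not overlap at any called probe set, a separation that 46.1% of all probe sets showed. Leaving out the first or the second TgSREBP-1a array gave 87 or 142 calls. Leaving out the first TgSREBP-2 array gave 122, and leaving out the second gave 384, of which 177 were among the 231. In total 56 of the 147 higher and 26 of the 84 lower calls held. Over all probe sets the median difference was 0.01.

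Seen from wild type, most of the differences lay on the SREBP-1a side. The 147 higher probe sets had a median change of 0.86 in TgSREBP-1a and -0.04 in TgSREBP-2, and TgSREBP-1a was the farther from wild type at 134 of them. For the 84 lower ones the medians were -0.89 and 0.16, and TgSREBP-1a was the farther at 56 and TgSREBP-2 at 28. Of the higher ones 103 were also called above wild type in TgSREBP-1a, against 1.36% of all probe sets, and 6 in TgSREBP-2, against 0.338%. Without the second TgSREBP-2 array the median changes of TgSREBP-2 were -0.06 and 0.25, and TgSREBP-1a was the farther at 130 and 56. Either way, 2.18% of all probe sets were called against wild type in TgSREBP-1a and 0.5% in TgSREBP-2. The latter were 62 probe sets, and 124 without the second TgSREBP-2 array. Of the lower ones 49 were called below wild type in TgSREBP-1a (0.814% of all) and 12 above wild type in TgSREBP-2. A remainder of 40 higher and 23 lower probe sets was called in neither line against wild type. These comparisons share arrays with the one between the lines, so the counts place the genes and are no separate evidence.

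**Figure D1:**
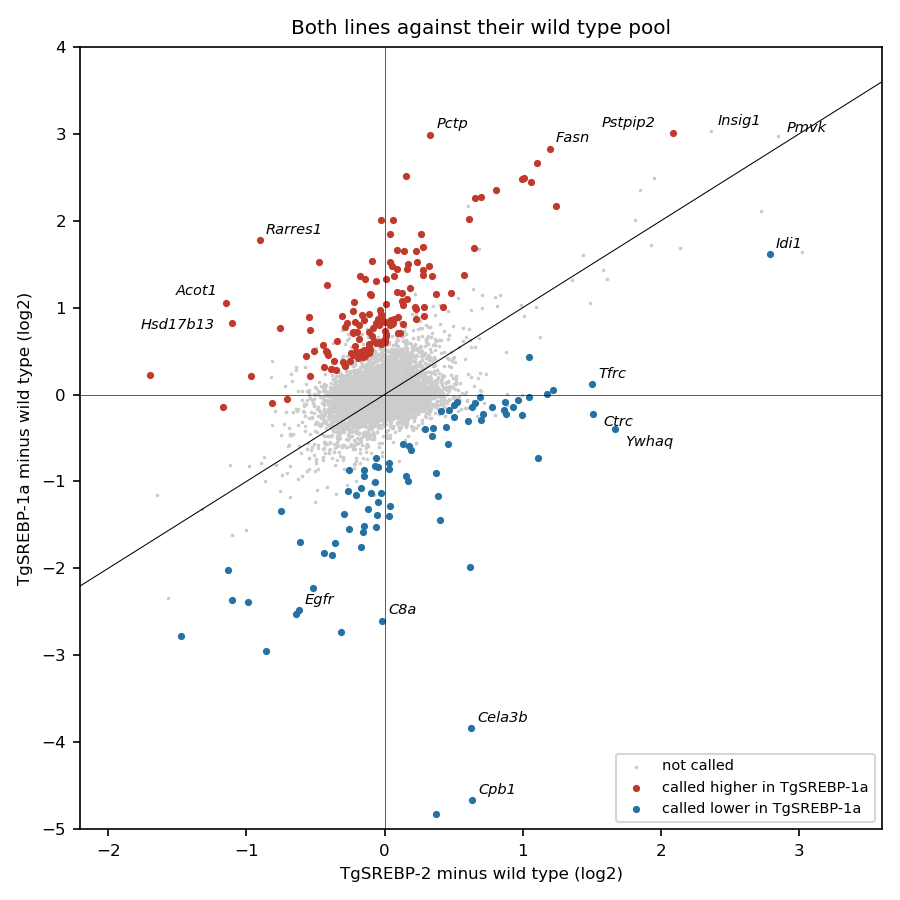
Change against wild type of each probe set in TgSREBP-2 (horizontal axis, log2) and TgSREBP-1a (vertical axis, log2), each point 1 probe set and each axis the difference between means of 2 arrays. The 147 probe sets called higher in TgSREBP-1a (red) lie above the line of equal change and the 84 called lower (blue) below it. Idi1, Tfrc and Ctrc stand to the right, where TgSREBP-2 exceeds wild type. Both axes use the same wild type arrays.

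Most genes of cholesterol synthesis were higher than wild type in both lines, and on balance read higher in TgSREBP-2. Of 8 measured, 6 were called above wild type in TgSREBP-1a and 7 in TgSREBP-2, with median changes of 1.61 and 2.11. Between the lines 0 were called higher and 1 lower in TgSREBP-1a, with a median of -0.45, where 1.47% and 0.782% of all genes were called. These shares also stand beside the counts of the other gene lists below. Idi1, the isomerase that makes the activated isoprene unit dimethylallyl diphosphate, read 7.06 and 7.23 for the TgSREBP-1a pool, 8.19 and 8.45 for the TgSREBP-2 pool and 5.61 and 5.46 for the wild type pool. All 4 transgenic arrays exceeded wild type, and TgSREBP-2 did so by more. The difference was -1.18 ± 0.16 (limma, adjusted p = 0.0027), and adjusted p was 0.0527 without the first TgSREBP-1a array.

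Steps before and after the isomerase differed in how far apart the lines lay. Pmvk, the kinase of phosphomevalonate, read 9.76 and 9.35 for the TgSREBP-1a pool and 9.64 and 9.21 for the TgSREBP-2 pool, against 6.86 and 6.29 in wild type. The lines overlapped, with a difference of 0.13 (95% interval -0.43 to 0.68) on its brighter probe set. The other Pmvk probe set, with a mean of 4.63, was called in no line. Lss, which closes the sterol ring, gave 0.17 (interval -0.17 to 0.51). For Cyp51, which removes a methyl group from lanosterol, the arrays read 7.35 and 7.08 against 7.87 and 7.76, a difference of -0.61 (interval -0.94 to -0.27) that was not called (limma, adjusted p = 0.075). Hsd17b7, a ketoreductase late in the pathway, read 7.52 and 7.49 against 8.60 and 9.17. Its difference of -1.38 ± 0.32 missed the threshold (limma, adjusted p = 0.0545). Its interval reached from -2.08 to -0.68. Nsdhl and Sc5d, of the late steps, lay at -0.44 and -0.47.

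Among 16 measured genes of sterol uptake and SREBP regulation, Mylip and Lpin1 were the 2 called between the lines, both higher in TgSREBP-1a. Scap and Srebf2 lay at -0.27 and -0.21. Insig1 read 8.62 and 8.54 on the TgSREBP-1a arrays, 7.72 and 8.11 on those of TgSREBP-2 and 5.62 and 5.47 on the wild type ones. Its difference of 0.67 (interval 0.14 to 1.19) was not called. Insig2 lay at 0.96 on its brighter probe set and 1.04 on the other, neither called (limma, adjusted p = 0.0972 on the brighter), and read 10.76 and 10.22 for the TgSREBP-1a pool, 9.74 and 9.31 for the TgSREBP-2 pool and 10.48 and 9.86 for the wild type pool. TgSREBP-2 was thus the lowest of the 3 groups for Insig2, although its change against wild type was not called either. Mylip, the ubiquitin ligase that marks the LDL receptor for breakdown, was higher in TgSREBP-1a by 0.91 ± 0.15 (limma, adjusted p = 0.01), with 5.43 and 5.40 against 4.42 and 4.58. Wild type read 4.53 and 4.57, so TgSREBP-2 lay at the wild type level. The Mylip call was lost without either TgSREBP-1a array or the first TgSREBP-2 array (adjusted p up to 0.115). The sterol carrier Stard4 (-0.46 and -0.15 on its probe sets), Aacs (-0.03), which activates acetoacetate for lipid synthesis, and the sterol exporter Abcg5 (-0.27) were called higher than wild type in both lines and not called between them.

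Fatty acid synthesis separated the lines in the other direction. Of 13 measured genes 4 were called higher in TgSREBP-1a and 0 lower, and the count was 4 in each fit without 1 array. Acaca, the carboxylase that commits acetyl-CoA to fat, read 10.78 and 10.53 on the TgSREBP-1a arrays, 9.36 and 9.19 on those of TgSREBP-2 and 8.34 and 8.08 on the wild type ones. Fasn, the synthase, read 8.31 and 8.02, then 6.65 and 6.42, then 5.45 and 5.23 in the same order. Both genes formed 3 steps with no overlap. Their differences were 1.38 ± 0.14 and 1.64 ± 0.16 (limma, adjusted p = 0.00044 for each), and a second Fasn probe set gave 1.56 ± 0.11. TgSREBP-2 was called above wild type for both, by 1.06 and 1.20.

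Acacb, the isoform that limits mitochondrial uptake of fatty acids, had another pattern. It read 10.42 and 10.06 for the TgSREBP-1a pool, 8.87 and 8.66 for the TgSREBP-2 pool and 9.03 and 8.78 for the wild type pool. The TgSREBP-2 change of -0.14 against wild type was not called, and the difference between the lines was 1.48 ± 0.15. Fads2, which performs the first desaturation step in making long polyunsaturated fatty acids, read 11.78 and 11.64 against 10.18 and 10.09. Wild type read 9.51 and 9.36. The 2 Fads2 probe sets gave 1.58 ± 0.14 and 1.49 ± 0.19. Acss2, which makes acetyl-CoA from acetate, was called above wild type in both lines and lay at 0.54 (interval 0.06 to 1.01) between them, not called. Me1, a source of NADPH, was called higher at 1.54 ± 0.29 with 6.84 and 6.35 against 4.72 and 5.39, and lost its call without either TgSREBP-1a array or the first TgSREBP-2 array (limma, adjusted p up to 0.257). The other 8 measured genes of the list, among them Elovl1, Elovl2, Elovl7, Fads3, Tecr and Mlxipl, lay between -0.33 and 0.33. The list median was 0.17.

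**Figure D2:**
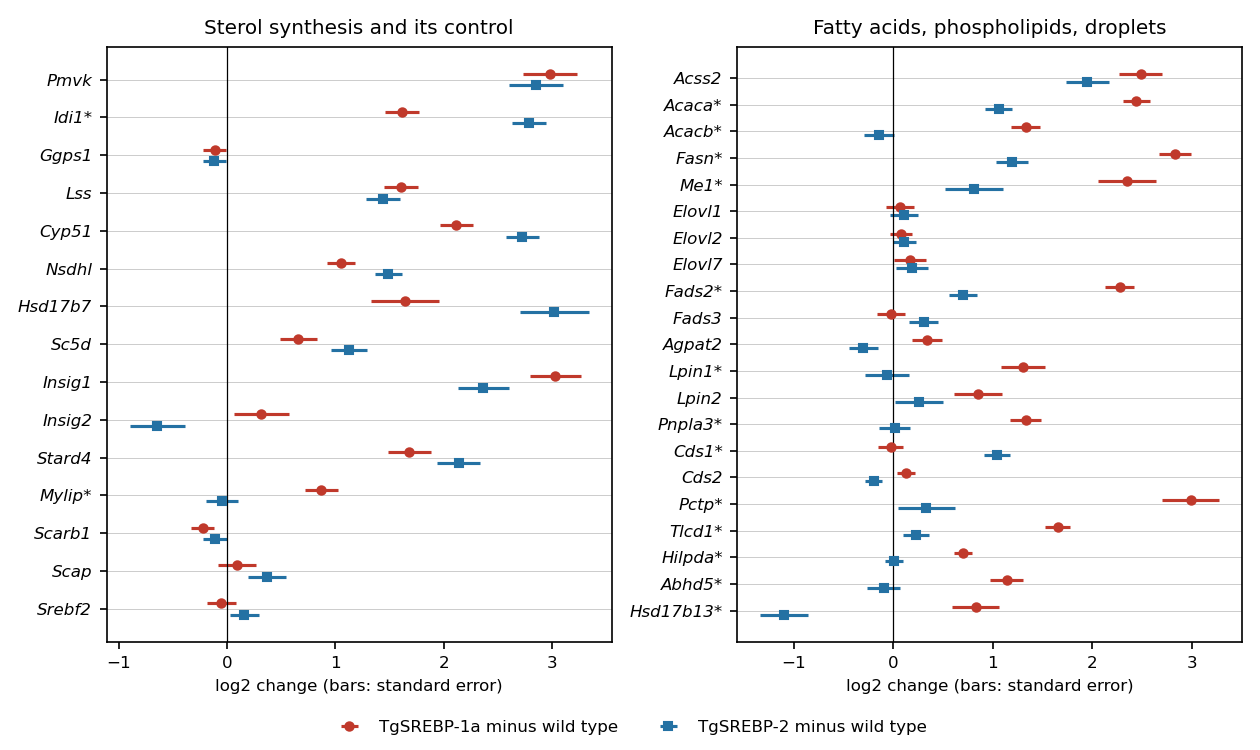
Change against wild type (log2, bars show the limma standard error, 2 arrays a group) of genes of sterol synthesis and its control (left) and of fatty acids, phospholipids and droplets (right). Circles are TgSREBP-1a and squares TgSREBP-2, and an asterisk marks a call between the lines. Pmvk and Lss nearly coincide, Idi1, Cyp51 and Hsd17b7 lie farther right in TgSREBP-2, and Acaca, Fasn and Fads2 lie farther right in TgSREBP-1a.

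Genes that activate fatty acids or split their CoA esters also differed. Acyl-CoA synthetases gave 2 higher, 1 lower and 3 not called of 6. Acsl3, which serves lipid synthesis at droplets and the endoplasmic reticulum, read 6.92 and 6.43 on the TgSREBP-1a arrays, 5.70 and 5.78 on those of TgSREBP-2 and 4.51 and 4.49 on the wild type ones. It was called above wild type in both lines and between the lines at 0.93 ± 0.15. Its dimmer probe set was not called (0.35). Acsl4, which prefers arachidonate, differed by 0.94 ± 0.17, with TgSREBP-2 at the wild type level (4.69 and 5.11 against 4.85 and 4.63). Acsm1, a mitochondrial synthetase of medium chains, was lower, at -1.11 ± 0.18. Acsl3 lost its call without the first array of either line (limma, adjusted p up to 0.0854). Acsl4 and Acsm1 lost theirs there and without the second TgSREBP-1a array too (up to 0.172 and 0.101).

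Of 6 thioesterases 3 were called higher and 0 lower. Acot1, of the cytosol, read 8.12 and 8.07 for the TgSREBP-1a pool, 5.63 and 6.16 for the TgSREBP-2 pool and 7.16 and 6.93 for the wild type pool. It was called above wild type in one line (1.05) and below it in the other (-1.15), the 1 probe set for which that was so, and the lines differed by 2.20 ± 0.18 (4.58-fold; limma, adjusted p = 0.00014). Acot2, its mitochondrial relative, read 10.11 and 9.80 against 8.35 and 8.42, and wild type read 8.25 and 8.34. Acot3, of peroxisomes, differed by 0.61 ± 0.12 and lost its call without the first array of either line (limma, adjusted p up to 0.34). These 3 genes are close paralogs, and whether their probe sets share transcripts was not tested. Acot11, Acot12 and Them4, of the same activity, lay between 0.10 and 0.14.

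Among 13 measured genes of the fatty acid oxidation list, these thioesterases were the 3 higher calls. Crot, which sends fatty acids out of peroxisomes as carnitine esters, was the 1 lower call, with 6.59 and 6.49 against 7.98 and 8.02 (-1.46 ± 0.22). The Crot call was lost without either TgSREBP-1a array or the first TgSREBP-2 array (limma, adjusted p up to 0.062). Ppara, the receptor that controls the pathway, read 6.27 and 6.20 against 6.91 and 7.16, a difference of -0.80 that was not called between the lines.

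Synthesis of glycerolipids and phospholipids gave 4 higher, 2 lower and 19 not called of 25 genes, and the number of calls was 4 to 6 without single arrays. Pctp, a transfer protein for phosphatidylcholine, read 10.43 and 10.16 on the TgSREBP-1a arrays, 7.50 and 7.77 on those of TgSREBP-2 and 7.42 and 7.18 on the wild type ones. TgSREBP-2 thus overlapped neither TgSREBP-1a nor wild type, and its change of 0.33 was not called. The lines differed by 2.66 ± 0.28 (6.32-fold; limma, adjusted p = 0.0008). Lpin1, a phosphatidate phosphatase, and Pnpla3, a droplet acyltransferase and lipase, had TgSREBP-2 at the wild type level (changes of -0.06 and 0.01) and differed by 1.37 ± 0.22 and 1.32 ± 0.15. Pnpla3 held on both of its probe sets, while Lpin1 lost its call without the first array of either line (limma, adjusted p up to 0.123). Tlcd1, which affects the fatty acid makeup of membrane lipids, differed by 1.42 ± 0.13 on a probe set with 9.36 and 9.08 against 7.79 and 7.81, and by 0.10 on a dim one.

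The lower calls of that list took different sides of wild type. Cds1, which makes CDP-diacylglycerol, read 4.60 and 4.92 for the TgSREBP-1a pool, 5.70 and 5.96 for the TgSREBP-2 pool and 4.82 and 4.76 for the wild type pool. The call of Cds1 (-1.07 ± 0.13) held, a dimmer set lay at -0.40 and was not called, and TgSREBP-2 was the group that left wild type. Etnppl, which degrades phosphoethanolamine, read 7.14 and 7.13, then 8.03 and 8.03, then 9.30 and 9.01. It was below wild type in both lines and more so in TgSREBP-1a, with -0.89 ± 0.13 between them (limma, adjusted p = 0.0037; 0.0544 without the first TgSREBP-1a array). The choline transporter Slc44a1 differed by 1.30 ± 0.12 on its dimmer probe set and by 0.21, not called, on the brighter, and Mfsd2a, which imports lysophosphatidylcholine, by 1.04 ± 0.14. These 2 genes were chosen after their values were seen.

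Of 5 measured lipid droplet genes 3 were called higher and all 5 lay above 0, with a median of 0.69. Hilpda, an inhibitor of lipolysis, and Abhd5, the coactivator of the lipase that opens lipolysis, were both higher, by 0.69 ± 0.09 and 1.24 ± 0.17. TgSREBP-2 changes against wild type were 0.01 and -0.09. Abhd5 lost its call without the first TgSREBP-1a array (limma, adjusted p = 0.0558). Hsd17b13, a dehydrogenase of the droplet surface, read 8.04 and 7.85 on the TgSREBP-1a arrays, 5.93 and 6.10 on those of TgSREBP-2 and 7.26 and 6.97 on the wild type ones. Wild type lay between the lines, neither change against it was called (0.83 and -1.10), and the difference between the lines was 1.93 ± 0.24 (limma, adjusted p = 0.0018). Of lipoprotein genes, Tm6sf2, which supports lipidation of VLDL, was the 1 call of 5 (0.68 ± 0.14), lost without either TgSREBP-1a array or the first TgSREBP-2 array (limma, adjusted p up to 0.337). Mttp, the microsomal transfer protein, gave discordant probe sets: 0.34 ± 0.10 on the brighter, not called, and 1.93 ± 0.20 on a dim one that read 5.48 and 5.74 against 3.51 and 3.86.

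Sphingolipid genes gave 3 higher, 0 lower and 11 not called of 14. B4galt6, which makes lactosylceramide, read 7.63 and 7.32 against 5.50 and 5.56, with wild type at 5.43 and 5.50. The difference was 1.94 ± 0.12 (limma, adjusted p = 1.5e-05) and of its dimmer probe sets one was called too (0.66 ± 0.15) and one was not (0.48). The call of the former was made again only without the second TgSREBP-1a array (adjusted p up to 0.367). Kdsr, of ceramide synthesis, and Acer2, a ceramidase, differed by 0.63 and 0.60, near the fold threshold. Kdsr lost its call without the first array of either line (limma, adjusted p up to 0.111), and Acer2 without any 1 of the 4 arrays (up to 0.141). The list of retinol and steroid dehydrogenases, which also holds other retinoid genes such as Rarres1, gave 3 higher and 0 lower, of 15. Rarres1 was 1 of these 3 calls. Rdh9 read 10.22 and 9.77 against 7.58 and 7.69, and its second probe set 8.37 and 7.69 against 6.23 and 6.19. Rarres1, a gene induced by retinoids, read 8.05 and 7.94 for the TgSREBP-1a pool, 5.08 and 5.55 for the TgSREBP-2 pool and 6.29 and 6.15 for the wild type pool, so that wild type again lay between the lines. It had the largest rise among probe sets with a symbol, 2.68 ± 0.21 (6.42-fold; limma, adjusted p = 9.1e-05). Other genes of the list such as Rdh10, Rdh12, Rdh14 and Ttpa lay between 0.01 and 0.33. Of the 15 members 10 lay above 0, and the lowest was at -0.55.

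**Figure D3:**
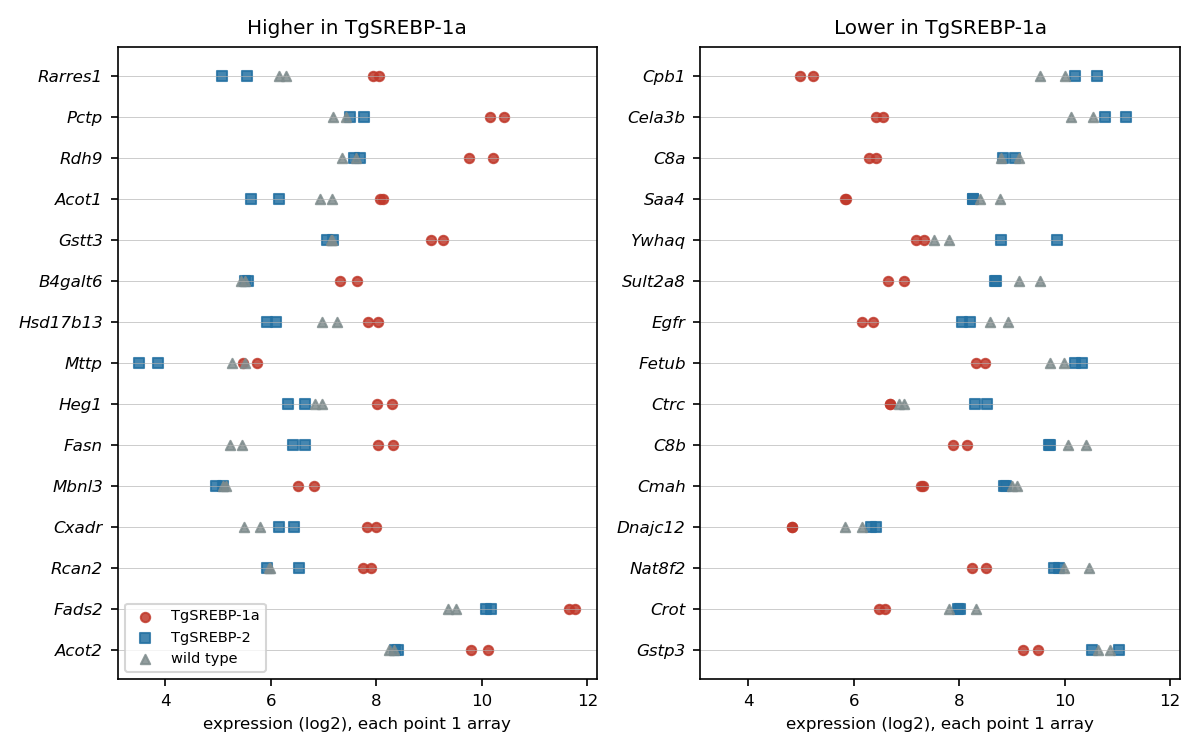
Expression (log2, each point 1 array) of the 15 genes with the largest calls higher (left) and lower (right) in TgSREBP-1a, 2 arrays each for TgSREBP-1a, TgSREBP-2 and wild type. Pctp, Gstt3, B4galt6 and Acot2 have TgSREBP-2 near wild type, Rarres1, Hsd17b13 and Acot1 have wild type between the lines, and Ctrc and Ywhaq have TgSREBP-2 apart from the other groups.

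On the TgSREBP-2 side, 12 probe sets were lower in TgSREBP-1a than in TgSREBP-2 and called above wild type in TgSREBP-2. Over all probe sets 0.338% were called above wild type in TgSREBP-2. Those of the 12 with a symbol were Idi1, Ctrc, Tfrc, Cds1, Ywhaq, Meg3, Cnot2 and Anxa13. Tfrc, the transferrin receptor, read 6.14 and 6.46 in TgSREBP-2, 5.03 and 4.81 in TgSREBP-1a and 4.83 and 4.77 in wild type. Anxa13, an annexin of epithelia, read 5.99 and 6.36, 5.56 and 5.57, and 5.13 and 5.13 in that order. Tfrc and Anxa13 lost their calls without either TgSREBP-1a array or the second TgSREBP-2 array (limma, adjusted p up to 0.1 and 0.183). Cnot2 and Idi1 lost theirs without the first TgSREBP-1a array (0.0559 and 0.0527). For Ywhaq, a 14-3-3 protein, the TgSREBP-2 arrays stood apart at 8.79 and 9.86, against 7.19 and 7.34 in TgSREBP-1a. Meg3, a noncoding RNA, was called on 1 of 4 probe sets (-0.92 ± 0.11) and the others lay between -0.27 and -0.01. The other 4 had no single symbol. Of the 12 probe sets 6 carried a suffix that marks probes shared between transcripts or chosen under relaxed rules, against 13.8% of all probe sets. Whether that bears on them was not tested.

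On the opposite side, 5 of the 147 higher probe sets were called below wild type in TgSREBP-2, as were 0.161% of all probe sets. Both comparisons use the TgSREBP-2 arrays. The 5 were Acot1, the dim set of Mttp, Aldh1b1 and 2 sets of Ddah1. Ddah1, which clears methylated arginines, read 6.94 and 6.94 on the TgSREBP-1a arrays, 5.86 and 5.95 on those of TgSREBP-2 and 7.23 and 6.93 on the wild type ones. The difference of 1.03 ± 0.13 thus came with TgSREBP-1a at the wild type level. The second set gave 1.18 ± 0.16, and both held. The remaining, dimmer set lay at 0.46 and was not called. Aldh1b1, a mitochondrial aldehyde dehydrogenase, showed the same order, with 7.38 and 7.41, 6.74 and 6.76, and 7.48 and 7.42. It lost its call without either TgSREBP-1a array or the first TgSREBP-2 array (limma, adjusted p up to 0.0858).

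On the lists of acute phase and of complement genes the calls were lower in TgSREBP-1a. Of 12 acute phase and hepatokine genes 0 were called higher and 4 lower, with a median of -0.47, and of 9 complement and coagulation genes 0 and 2. The first count was 2 without either TgSREBP-1a array or the first TgSREBP-2 array, and the second was 2 in each fit. C8a, a chain of the membrane attack complex, read 6.43 and 6.30 against 9.05 and 8.83. C8b, another chain of it, read 8.14 and 7.88 against 9.73 and 9.70. Saa4, a constitutive serum amyloid, read 5.83 and 5.86 against 8.27 and 8.26. TgSREBP-2 lay at -0.02, -0.52 and -0.32 against wild type. Their differences were -2.58 ± 0.24, -1.70 ± 0.16 and -2.42 ± 0.16, and all 3 held. Fetub, a protease inhibitor of the fetuin family, held at -1.85 ± 0.13. Fgl1 and Itih4 lost their calls without either TgSREBP-1a array or the first TgSREBP-2 array (limma, adjusted p up to 0.115 and 0.158).

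Calls among detoxification genes went both ways. Of 20 conjugating and other xenobiotic enzymes 1 was called higher and 3 lower, beside 1.47% and 0.782% of all genes. The higher one was Aldh1b1, described above, which was at the wild type level in TgSREBP-1a and whose call did not hold. Sult2a8, a sulfotransferase, read 6.95 and 6.65 for the TgSREBP-1a pool, 8.70 and 8.68 for the TgSREBP-2 pool and 9.53 and 9.13 for the wild type pool, a difference of -1.89 ± 0.25. Aox3, an aldehyde oxidase, and Ugt2b1, a glucuronosyltransferase, stepped down in the same order, with TgSREBP-2 changes of -0.99 and -1.10 against wild type that were not called. Between the lines Aox3 (-1.39 ± 0.25) lost its call without any 1 of the 4 arrays, and Ugt2b1 (-1.27 ± 0.22) without any but the first TgSREBP-2 array (limma, adjusted p up to 0.144 and 0.136). Of 9 glutathione enzymes Gstt3 and Gstm7 were higher and Gstp3 lower. Gstt3 read 9.27 and 9.04 against 7.18 and 7.06 (2.03 ± 0.12; limma, adjusted p = 1.3e-05), and Gstp3 read 9.49 and 9.20 against 11.04 and 10.52. TgSREBP-2 lay within 0.03 of wild type for each of these 3, and Gstm7 lost its call without any but the second TgSREBP-1a array (limma, adjusted p up to 0.281). Cyp4f14, which hydroxylates fatty acids and leukotrienes, was the 1 call of 7 cytochromes P450, at -1.35 ± 0.17.

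Among genes of signalling, 3 of 33 were called higher (Camk1d, Sgk2 and Ptprb) and 1 lower (Egfr). Camk1d, a calcium-dependent kinase, read 9.29 and 9.24 on the TgSREBP-1a arrays, 7.93 and 8.03 on those of TgSREBP-2 and 7.83 and 7.66 on the wild type ones, and its call (1.29 ± 0.14) held. A dim Camk1d probe set lay at 0.21. Egfr, the EGF receptor, read 6.37 and 6.17 against 8.05 and 8.21, with wild type at 8.92 and 8.59. Tnfrsf12a, the receptor of TWEAK, read at least 8.74 on both TgSREBP-1a arrays, against 7.28 and 7.38 on those of TgSREBP-2 (1.54 ± 0.11). Pstpip2, an adaptor of the actin cytoskeleton, was called above wild type in both lines by 3.01 and 2.09 and differed between them by 0.92 ± 0.12, while a dim suffixed set lay at -0.05. Mbnl3, a splicing regulator, differed by 1.63 ± 0.12. Of 7 probe sets of its relative Mbnl2, 3 were called higher (0.69 to 1.10) and the other 4 lay between 0.24 and 0.43. Pstpip2 and Mbnl2 were chosen after their values were seen. Pstpip2 lost its call without the first TgSREBP-1a array (limma, adjusted p = 0.0559) and Sgk2 without the first array of either line (up to 0.0814). The 3 Mbnl2 calls were lost there as well (up to 0.422), 2 of them also without the second TgSREBP-1a array and 1 of these without the second TgSREBP-2 array.

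The next counts stand beside 1.47% of all genes called higher and 0.782% lower. Of 64 solute carriers 2 were higher and 3 lower: Slc39a5, a zinc importer, at 1.03 ± 0.09 and Slc23a1, of vitamin C, at 1.29 ± 0.19 against Slc17a2, Slc25a23 and Slc46a3 between -1.29 and -0.71. Slc39a5 held, and Slc23a1 lost its call without the first TgSREBP-1a array (limma, adjusted p = 0.0874). Slc17a2 and Slc25a23 lost theirs without either TgSREBP-1a array or the first TgSREBP-2 array (up to 0.11 and 0.128), and Slc46a3 without any 1 array (up to 0.319). Of 24 genes of amino acid breakdown 3 were higher and 1 lower. Gpt2, the mitochondrial alanine aminotransferase, read 10.19 and 9.83 for the TgSREBP-1a pool, 8.45 and 8.69 for the TgSREBP-2 pool and 9.27 and 8.96 for the wild type pool. It lost its call without the first array of either line (limma, adjusted p up to 0.0774). In all, 71 of 188 called genes were on a list, and 12 of 45 lists with a measured member had no call. Lists without a call included the respiratory chain (10 genes), the unfolded protein response (17), the cell cycle (12), the circadian clock (13), glycolysis and gluconeogenesis (8) and 37 nuclear receptors and liver transcription factors, with medians between -0.08 and 0.13. Without adjustment 1823 probe sets passed a p of 0.05, so no call on a list does not show that its genes were equal.

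**Figure D4:**
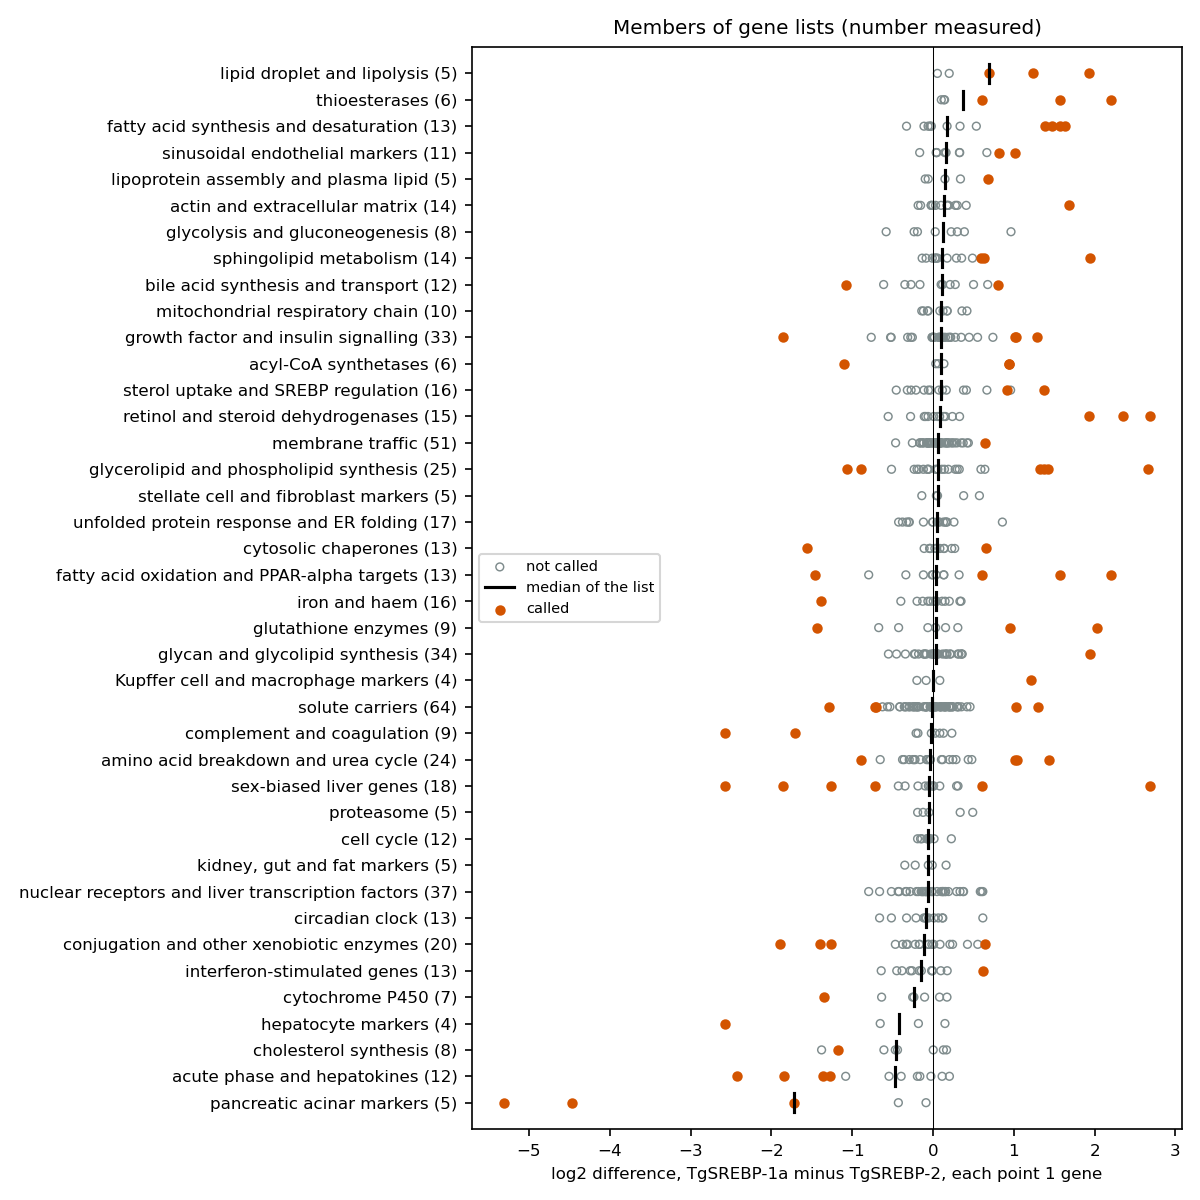
Log2 difference between TgSREBP-1a and TgSREBP-2 of the measured members of each gene list with at least 4 of them, each point 1 gene, represented by its brightest probe set. Filled points are called, open ones not, and the black bar is the list's median. Lipid droplet genes (median 0.69) stand at the top, and cholesterol synthesis (-0.45), acute phase genes (-0.47) and pancreatic acinar genes (-1.72) at the bottom.

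Markers of cell types were read beside these results. Of 20 hepatocyte markers 4 were measured. Apoa1 read at least 12.22 on each of the 6 arrays, Hnf4a lay between 10.05 and 10.75, and C8a was the 1 called. The mean of the 4 was 9.36 and 9.19 on the TgSREBP-1a arrays, 10.25 and 9.94 on those of TgSREBP-2 and 10.58 and 10.23 on the wild type ones. C8a, at -2.58, had the largest part in that gap, and the median of the 4 differences was -0.42. In the fits without 1 array Tdo2, the fourth marker and not called, lay between -0.79 and -0.51. Apoa1 lay between -0.40 and 0.70 in those fits, so its direction depended on single arrays. Of 11 measured sinusoidal endothelial markers 2 were called higher, Lyve1 (0.82 ± 0.10) and Ptprb (1.02 ± 0.18), and 10 lay above 0. Their mean was 7.08 and 7.08 on the TgSREBP-1a arrays, 6.76 and 6.77 on those of TgSREBP-2 and 6.90 and 6.88 on the wild type ones. Of the others Stab1, Stab2, Flt1 and Plvap lay between 0.04 and 0.16 on their brightest probe sets. Dimmer Plvap sets at 0.55 and 0.73 were not called. Ehd3, also not called, lay between 0.51 and 0.83 in the fits without 1 array. The whole list ran from -0.16 to 1.02. Lyve1 held, and Ptprb lost its call without either TgSREBP-1a array or the first TgSREBP-2 array (limma, adjusted p up to 0.182). Of 4 Kupffer cell and macrophage markers Cd163 was called (1.21 ± 0.15) and the others lay between -0.20 and 0.08. Whether cell makeup had a part in the results was not tested, and in bulk tissue fewer cells of a type and less RNA per cell cannot be told apart.

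Pancreatic acinar genes gave the largest differences. Of 35 markers 5 were measured and 3 were called lower in TgSREBP-1a, in each fit without 1 array. Cpb1, carboxypeptidase B, read 5.22 and 4.98 for the TgSREBP-1a pool, 10.62 and 10.19 for the TgSREBP-2 pool and 10.01 and 9.53 for the wild type pool. Cela3b, an elastase, read 6.43 and 6.55, then 11.16 and 10.76, then 10.54 and 10.12. The differences were -5.30 ± 0.21 (39.5-fold) and -4.47 ± 0.16 (22.1-fold; limma, adjusted p = 5.9e-07 for each). Ctrc, a chymotrypsin, read 6.69 and 6.69, then 8.52 and 8.30, then 6.96 and 6.86, so that only TgSREBP-2 left wild type. Pla2g1b and Bhlha15 lay at -0.43 and -0.09 and were not called. The mean of the 5 was 6.44 and 6.45 on the TgSREBP-1a arrays, 8.97 and 8.72 on those of TgSREBP-2 and 8.34 and 8.18 on the wild type ones. Whether pancreatic tissue entered the pools was not tested.

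The Scap study shares no array with the 2 lines and gave a further value for each gene. Its calls came from the same fit, however, which pools the spread of each probe set over all groups. A probe set with a small pooled spread was therefore favoured for a call in both comparisons, and the shared calls below are not independent. With only the arrays of the Scap study in the fit, 5 probe sets were called in Scap-/- instead of 34. Scap itself read 7.94 and 7.75 in Scap-/- and 9.24 and 8.89 in the wild type of that study on its bright probe set (-1.22 ± 0.18, called), and 0.12 apart on a dim one. Where these probe sets lie relative to the deleted part was not tested. Between the 2 lines Scap lay at -0.27. Of the 147 probe sets higher in TgSREBP-1a 8 were called lower in Scap-/- liver (5.44%) and 1 higher. Of the 84 lower ones 5 were called lower (5.95%) and 1 higher. The pancreatic acinar genes Cpb1 and Cela3b were among the 5 called lower in Scap-/- liver. Over all probe sets 0.258% were called lower there and 0.0161% higher (0.274% either way), and 0.483% of those at or above the median level were called lower. The first count was 0 without the second Scap-/- array or when the first of its wild type arrays was left out, and over all such fits the counts ranged from 0 to 8 and from 4 to 8. Without regard to calls, 66.7% of the higher and 71.4% of the lower probe sets were below 0 in Scap-/-, against 45.6% of all.

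Genes called in both studies combined the directions in 4 ways. Fads2, Acacb, Gstt3, Camk1d, Tlcd1 and Rarres1 were higher in TgSREBP-1a and lower in Scap-/-. For Fads2 the Scap-/- arrays read 8.42 and 8.01 and their wild type arrays 9.48 and 9.22, and for Camk1d 5.81 and 5.82 against 6.89 and 6.43. Idi1, Cpb1 and Cela3b were lower in TgSREBP-1a than in TgSREBP-2 and lower in Scap-/-, Idi1 with 4.97 and 5.24 against 7.57 and 7.15. Tnfrsf12a was higher in TgSREBP-1a and also higher in Scap-/- (0.87 ± 0.11), and a suffixed probe set of Fam25c was lower in TgSREBP-1a (-1.42 ± 0.14) and higher in Scap-/- (1.41 ± 0.14). The other Fam25c set was lower in TgSREBP-1a too (-1.03 ± 0.21, lost without either TgSREBP-1a array or the first TgSREBP-2 array, adjusted p up to 0.277) and was not called in Scap-/-. Pctp, B4galt6, Acot1, Acot2 and Hsd17b13, with large differences between the lines, were not called in Scap-/-, where they lay between -0.43 and 0.13.

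**Figure D5:**
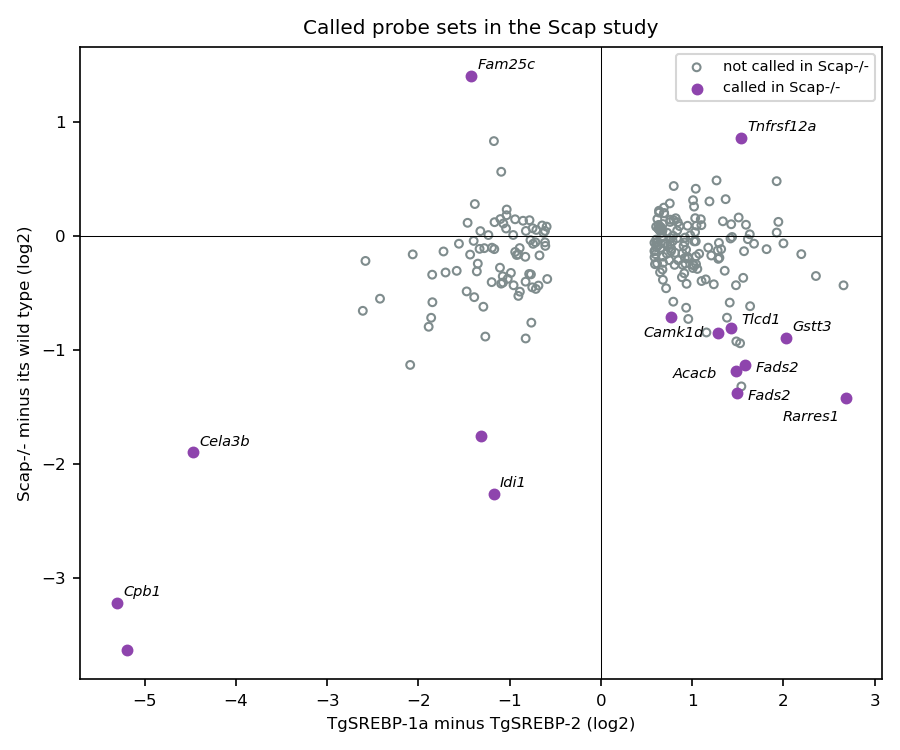
Difference between TgSREBP-1a and TgSREBP-2 (horizontal axis, log2) and between Scap-/- and its wild type (vertical axis, log2) for the 231 probe sets called between the lines, each point 1 probe set. Filled points are called in Scap-/-. Fads2, Acacb, Gstt3 and Rarres1 lie at the lower right, Idi1, Cela3b and Cpb1 at the lower left, and Tnfrsf12a and Fam25c above 0.

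SREBPs bind a sterol regulatory element and also the palindrome CACGTG, so promoter windows were searched for these letters on both strands. RefSeq promoters of assembly GRCm38.p6, from 250 bases before to 50 after each start, were matched for 6040 of the 7542 genes. The letters TCACNCCAC, which a sterol regulatory element can hold, stood in 1.52% of these promoters, in 5 of 101 genes higher in TgSREBP-1a (4.95%) and in 1 of 50 lower genes (2.0%). CACGTG stood in 10.78% of all, 5.94% of the higher and 4.0% of the lower genes. CCAAT, the letters of an NF-Y site, stood in 42.25% of all and in 49.5% and 42.0% of these groups. It stood in 13 of 18 genes called above wild type in both lines (72.22%). Of the same 18 genes 0 held TCACNCCAC and 2 held CACGTG (11.11%). A match describes the letters in the window and is no evidence of binding. The 7 windows below are shown because they hold a match in genes named above or, for Pafah2, in the 1 lower gene with TCACNCCAC. Gstm7, also higher in TgSREBP-1a, holds TCACNCCAC at -9 and is not printed. They are written in the direction of transcription with the match in capitals, at chr2:5676086-5676134 (minus strand), chr4:134402662-134402695 (plus), chr10:127776184-127776229 (plus), chr13:23806968-23807013 (plus), chr5:28071291-28071336 (plus), chr1:169969323-169969368 (minus) and chr9:42264373-42264418 (minus).
Camk1d: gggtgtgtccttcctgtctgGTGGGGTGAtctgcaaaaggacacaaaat
Pafah2: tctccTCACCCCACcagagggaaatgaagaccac
Rdh9: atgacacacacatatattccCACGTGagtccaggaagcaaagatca
Slc17a2: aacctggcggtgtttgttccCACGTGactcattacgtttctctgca
Insig1: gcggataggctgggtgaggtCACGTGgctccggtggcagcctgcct
Hsd17b7: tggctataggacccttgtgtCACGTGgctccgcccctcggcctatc
Sc5d: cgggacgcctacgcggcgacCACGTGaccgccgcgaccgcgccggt

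The windows with CACGTG belong to genes of different patterns. Insig1 and Hsd17b7 were above wild type in both lines and not called between them, Sc5d was called above wild type in TgSREBP-2 alone (1.13, against 0.66 in TgSREBP-1a), Rdh9 was called in TgSREBP-1a alone (2.51, against 0.15 in TgSREBP-2), and Slc17a2 was called below wild type in TgSREBP-1a alone (-1.55, against -0.26). In Camk1d TCACNCCAC is read on the opposite strand, and the window starts its match at -68 from the RefSeq start. Pafah2, a phospholipase that degrades platelet-activating factor, read 5.80 and 5.42 for the TgSREBP-1a pool, 6.81 and 6.76 for the TgSREBP-2 pool and 5.69 and 5.53 for the wild type pool (-1.17 ± 0.23). The call was lost without any 1 of the 4 arrays (limma, adjusted p up to 0.194). Its match starts at -245.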

How the data were processed

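Liver RNA pools were measured on 10 Affymetrix MG_U74Bv2 arrays, 4 of them of the TgSREBP-1a and TgSREBP-2 lines. The deposited log2 expression values come from RMA per the submitters' processing notes, which name no version, and the series' design text names Microarray Suite 5.0. RMA corrects background, equalises the arrays' distributions and summarises probes, so differences common to most genes are removed. No scanner values were used. The genome build of the probe sets was not given in the sources used here. Gene symbols came from the platform annotation: 10581 probe sets had 1 symbol, 178 several and 1652 none, and 66 control probe sets were left out.

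From the deposited values, limma 3.58.1 in R 4.3.3 (lmFit, eBayes) fitted 1 coefficient per group over all 10 arrays, so that 5 groups share 1 spread per probe set, with two-sided contrasts and Benjamini-Hochberg adjustment over 12411 probe sets. Called means adjusted p under 0.05 and at least 1.5-fold. The procedure was tested on simulated data. Precision is limited by having 2 arrays a group.

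The comparison, its genes and 46 gene lists (2031 entries) were chosen with earlier results of these data known. Named genes were, among probe sets with 1 symbol, the 25 largest calls each way without overlap between the arrays, at most 6 genes from each list (calls before others, then by brightness), every call shared with Scap-/-, probe sets called in opposite directions against wild type, and Scap, Srebf1, Srebf2 and Insig1 where measured. Genes outside this rule were named after their values were seen. A gene with several probe sets stands in lists by the one with the highest mean. Alternatives were other sets of arrays, an intensity trend, array weights, repeated quantile normalization, leaving out dim probe sets, the hybridisation number as a block, other fold thresholds, averaging probe sets, and leaving out each array. Counts on lists, in Scap-/- and on the side of wild type without single arrays were added after seeing the data. Promoter sequences are RefSeq's.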

Additional observations from a re-analysis of the deposited data

Results flagged for a closer look

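Acot1, a cytosolic thioesterase, changed in opposite directions in the 2 lines. It was above wild type by 1.05 in TgSREBP-1a and below it by 1.15 in TgSREBP-2 (log2 changes of 1.05 and -1.15, each called by limma), and the difference between the changes, which is the comparison of the lines itself, was 2.20 ± 0.18 (limma, adjusted p = 0.00014). Both TgSREBP-2 arrays (5.63 and 6.16) lay below both wild type arrays (7.16 and 6.93), and both TgSREBP-1a arrays (8.12 and 8.07) above them.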

How the results depend on the processing

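The 231 calls between the lines became 298 with only the 4 arrays of the lines in the fit, 302 with the 6 arrays of the transgenic study, 231 with an intensity trend, 242 with array weights, 244 after a further quantile normalization and 181 without dim probe sets. At 2-fold they were 115, and without single arrays 87 to 384, with 51.8% of calls higher without the second TgSREBP-2 array against 63.6% with it. Other counts moved as follows. Calls of TgSREBP-1a against wild type were 133 at 2-fold (270 as reported) and 142 to 193 without single arrays. Those of TgSREBP-2 against wild type were 38 at 2-fold (62 as reported) and 25 to 124 without single arrays. Those of Scap-/- were 5 with only its groups' arrays (34 as reported) and 10 to 68 without single arrays. No result reversed. Many of the 241 named probe sets were not called between the lines and so had no call to lose. With 4 arrays 1 call among them was lost and 9 were gained. After quantile normalization 1 was lost and 7 were gained. More calls were lost without single arrays than in either of these settings.

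Replicate numbers do not pair the samples in the labels. Deviations of arrays with the same number correlated at 0.113 between the lines, 0.411 and 0.06 for TgSREBP-1a and TgSREBP-2 with wild type, and 0.598 for Scap-/- with its wild type. Over all 10 pairs of groups they ran from -0.167 to 0.598. When the replicate number entered as a replicate block, 306 probe sets were called between the lines, 335 in TgSREBP-1a, 101 in TgSREBP-2 and 91 in Scap-/- against their wild types. The cause of these shifts was not tested. A lone array left in a group was assumed to vary like the other groups. With 1 pool a line, differences between mice cannot be seen, and values near the lower end of the scale, where RMA compresses changes, give small differences only.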

Other observations

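Some of the calls belong to probe sets without a single gene symbol, 7 of the 147 higher and 19 of the 84 lower ones. One of them, 162523_at, read 5.63 and 5.61 for the TgSREBP-1a pool, 10.96 and 10.68 for the TgSREBP-2 pool and 10.71 and 10.17 for the wild type pool. Its difference was -5.20 ± 0.20, and it was also called lower in Scap-/- (-3.63 ± 0.20), as were Cpb1 and Cela3b. Another, 105977_f_at, read 9.69 and 9.30, then 7.54 and 7.45, then 8.15 and 7.79 in the same order, with a difference of 2.00 ± 0.19.

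Of 66 called genes with more than 1 probe set, 50 had all of them on the same side of 0. At least 2 were called in 16 genes, all in 9, and 0 genes were called in both directions. The shares among all 2205 genes with more than 1 probe set were not computed, so these counts are no measure of agreement. Probe sets with a suffix made up 13.6% of the higher and 23.8% of the lower calls, against 13.8% of all.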
